A study of Mus musculus with 1187 samples.

Results

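Cyp4b1, Slc22a14 and Cdh26 are 3 of the 46517 gene rows counted in single endothelial cells of the mouse brain, and they were grouped because earlier results of these same counts showed them in cells of a pair of plates. The rule used their levels by plate, so the values by plate and their joint presence in cells are a description and carry no test. The cells came from C57BL/6 mice, given as adult in the labels and as 3 months old in the design text, in which Pdgfb ret animals had been crossed to carry a GFP reporter of Cldn5 and a DsRed reporter of Cspg4. Cells with GFP and without DsRed were sorted into 384-well plates and read by Smart-seq2, a full-length cDNA method in which every well is a library of its own and no molecular identifiers are used. The labels assign 590 cells to the genotype Pdgfb ret/+ and 597 to Pdgfb ret/ret, the pericyte-deficient state. The ret allele lacks the motif that holds the growth factor PDGF-B near the endothelial surface, and all cells carry at least 1 such allele. No animal is named.

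Count columns carry a plate and a well as their name, while the labels carry a running number, so no cell could be tied to a genotype. All 1187 cells were therefore handled as 1 pooled sample and described plate by plate, with no test and no p-value. There are 590 columns from plates 521 and 522 and 597 from plates 523 and 524, as many as each genotype has labels, but matching numbers do not tell which cells a plate holds. Plate, genotype and animal cannot be told apart here. Plates 521 to 524 held 300, 290, 285 and 312 cells, with 100779 to 584112 reads per cell and a median of 349606 to 373444 reads on a plate. The intervals below are exact 95% intervals that cover counting error alone, because reads without molecular identifiers are not independent molecules.

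Cyp4b1 encodes a cytochrome P450 of family 4, a group of haem enzymes that oxidise fatty acids and foreign compounds and take electrons from the reductase Por. Slc22a14 belongs to the SLC22 family of organic ion transporters and is known in the mouse for carrying riboflavin into sperm mitochondria. Cdh26 encodes an atypical cadherin, studied mainly in human epithelium during allergic inflammation, where it binds integrins. In brain vessels, endothelial cells differ along the path from artery through capillary to vein, and venous endothelium is the usual site where leukocytes adhere and inflammatory genes are induced.

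The genes lie apart in the genome. In the GENCODE M21 annotation on GRCm38, Cyp4b1 (ENSMUSG00000028713.17) spans chr4:115624725-115647723 on the minus strand. Slc22a14 (ENSMUSG00000070280.13) spans chr9:119169455-119365553 on the minus strand, and Cdh26 (ENSMUSG00000039155.15) spans chr2:178430531-178487366 on the plus strand. Because the 3 genes were read in overlapping sets of cells, their promoter stretches are shown, from 250 bases before to 50 after the start that RefSeq gives on GRCm38.p6. Each is written 5′ to 3′ on the strand of its gene, with searched motifs in capitals: chr4:115647672-115647971 for Cyp4b1, chr9:119190346-119190645 for Slc22a14 and chr2:178430265-178430564 for Cdh26.
Cyp4b1: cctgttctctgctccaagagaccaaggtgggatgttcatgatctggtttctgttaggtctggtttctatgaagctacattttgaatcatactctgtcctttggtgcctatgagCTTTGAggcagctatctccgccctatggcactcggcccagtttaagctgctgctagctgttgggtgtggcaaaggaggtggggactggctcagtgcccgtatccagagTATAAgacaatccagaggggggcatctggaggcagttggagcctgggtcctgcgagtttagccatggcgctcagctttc
Slc22a14: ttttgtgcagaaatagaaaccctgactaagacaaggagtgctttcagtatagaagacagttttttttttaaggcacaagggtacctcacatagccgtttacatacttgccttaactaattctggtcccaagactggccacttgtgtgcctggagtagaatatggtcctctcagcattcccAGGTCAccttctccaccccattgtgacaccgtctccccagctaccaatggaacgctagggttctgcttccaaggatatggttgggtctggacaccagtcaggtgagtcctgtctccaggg
Cdh26: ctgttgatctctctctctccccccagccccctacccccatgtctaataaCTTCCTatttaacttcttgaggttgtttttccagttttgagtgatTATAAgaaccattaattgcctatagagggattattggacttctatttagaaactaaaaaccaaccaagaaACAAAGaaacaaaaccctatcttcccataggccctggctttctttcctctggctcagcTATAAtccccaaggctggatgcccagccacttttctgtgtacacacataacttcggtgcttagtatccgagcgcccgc
The capitals mark the TCF/LEF motif CTTTGA at -137 and TATAA at -29 for Cyp4b1, and the nuclear receptor motif AGGTCA at -70 for Slc22a14. For Cdh26 they mark the ETS motif AGGAAG on the opposite strand at -201, where it reads CTTCCT. They also mark TATAA at -156 and -28 and the SOX motif ACAAAG at -86. Positions count from the annotated start. TATAA was searched on the strand of the gene, and the others on both strands. A second SOX motif, AACAAT, and the NF-kappaB motif GGGNNNNNCC had no match in these windows, and CANNTG matches are left in lower case. Of 32851 mouse promoters of the same length, 17.5% held TATAA, 16.0% CTTTGA, 16.3% AGGTCA, 35.4% AGGAAG, 18.7% ACAAAG, 10.7% AACAAT, 50.8% GGGNNNNNCC and 72.3% CANNTG. With its start required between -35 and -20, as in Cyp4b1 and Cdh26, TATAA was found in 3.17% of them. No searched motif was in all 3 windows: TATAA is in those of Cyp4b1 and Cdh26, and CANNTG in those of Cyp4b1 and Slc22a14. GC content was 53.0% for Cyp4b1, 48.3% for Slc22a14 and 44.0% for Cdh26, beside a median of 52.7% over all promoters. CpG pairs numbered 5, 3 and 4, beside a median of 7. The RefSeq start of Slc22a14 lies inside the longer gene that GENCODE draws, which also overlaps Slc22a13, Oxsr1, Myd88, Acaa1a and Xylb, so reads in shared exons could be assigned differently by another annotation.

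Cyp4b1, the P450 gene, was read at high level in few cells, nearly all on plates 521 and 522. A cell is called a carrier of a gene below when the gene stands at 20 CPM or more, CPM being its reads scaled to a common total for each cell. Cyp4b1 had 31 carriers among 300 cells of plate 521 (10.3%, 7.13% to 14.3%) and 19 among 290 cells of plate 522 (6.55%, 3.99% to 10.0%). Plate 523 had 1 carrier, at 25.2 CPM from 4 reads, and plate 524 had 0 of 312 cells, for which the upper limit is 0.962%. The carriers of plate 521 stood between 33.9 and 1988 CPM with a median of 382 CPM, and those of plate 522 between 136 and 1090 CPM with a median of 523 CPM. In the median cell of every plate the gene had no read, so most cells of a plate had none while a typical carrier was far above the threshold. Summed over all cells of a plate, Cyp4b1 reached 62.5 CPM (61.0 to 64.0) on plate 521 and 36.8 CPM (35.6 to 38.1) on plate 522, against 0.0389 CPM on plate 523 and 0.0184 CPM on plate 524. The 10 highest cells held 69.2% and 74.1% of its reads on plates 521 and 522.

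Slc22a14, the transporter gene, was carried by 50 cells of plate 521 (16.7%, 12.6% to 21.4%) and 15 cells of plate 522 (5.17%, 2.92% to 8.39%). No cell of plate 523 had a read, a count of 0 whose upper limit is 1.05%, and on plate 524 a single cell held all 24 reads, at 73.0 CPM. Carriers of plate 521 ran from 22.3 through a median of 279 to 1184 CPM, and those of plate 522 from 24.6 through 219 to 1339 CPM. The levels over all cells were 65.5 CPM (64.0 to 67.0) on plate 521, 16.2 CPM (15.5 to 17.1) on plate 522, 0 on plate 523 and 0.220 CPM on plate 524. The level on plate 522 was below that on plate 521, as it was for Cyp4b1, whose carrier shares on these plates have overlapping intervals. The 10 highest cells held 45.9% and 92.0% of the Slc22a14 reads on plates 521 and 522.

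Cdh26, the cadherin gene, was carried by the most cells of the 3. Its carriers were 108 cells of plate 521 (36.0%, 30.6% to 41.7%) and 45 cells of plate 522 (15.5%, 11.5% to 20.2%), against 3 cells of plate 523 (1.05%) and 5 of plate 524 (1.60%, 0.522% to 3.70%). Carriers ran from 21.8 through a median of 253 to 1820 CPM on plate 521 and from 29.7 through 291 to 1162 CPM on plate 522. The 3 carriers of plate 523 stood at 29.0, 34.7 and 256 CPM and the 5 of plate 524 at 24.3, 79.1, 233, 482 and 662 CPM, so some of the few carriers there reached the level usual on the other plates. Its summed levels were 133 CPM (131 to 135), 53.8 CPM (52.4 to 55.3), 1.05 CPM and 3.45 CPM on plates 521 to 524.

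**Figure D1:**
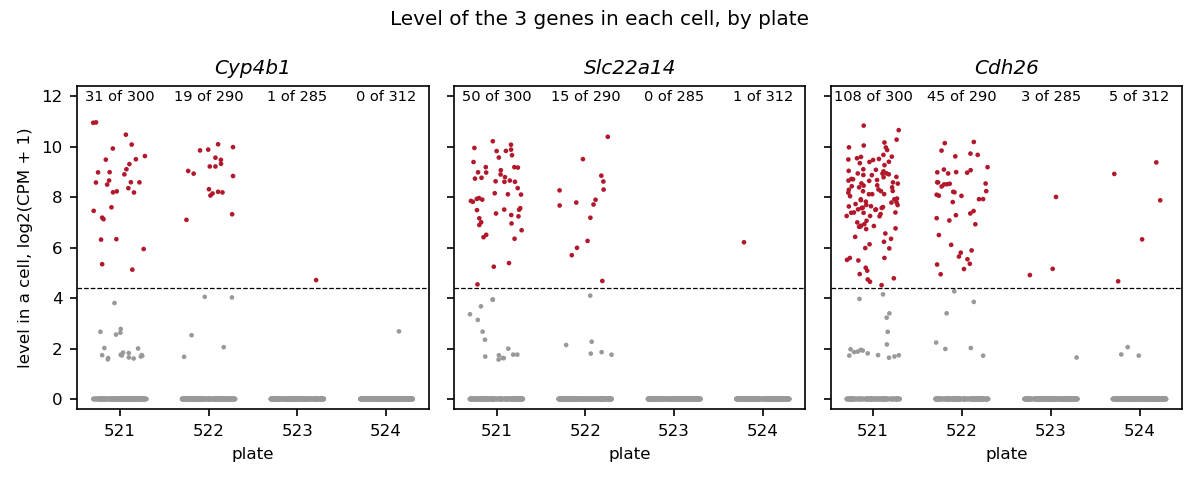
Level of Cyp4b1, Slc22a14 and Cdh26 in each cell as log2(CPM + 1), by plate. Red points are carriers at or above the dashed line at 20 CPM, grey points are other cells, and the numbers count carriers among cells; carriers of all 3 genes crowd on plates 521 and 522, with 31, 50 and 108 on plate 521 and at most 5 on plate 523 or 524.

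The threshold of 20 CPM fell in a thin part of the values. On plate 521 the lowest carrier and the highest cell below the threshold stood at 33.9 and 12.9 CPM for Cyp4b1, at 22.3 and 14.4 CPM for Slc22a14, and at 21.8 and 16.7 CPM for Cdh26. On plate 522 these values were 136 and 15.5 CPM, 24.6 and 16.1 CPM, and 29.7 and 18.2 CPM. When each cell was thinned to 100000 reads, Cyp4b1 had a read in 12.7%, 7.93%, 0.351% and 0.321% of the cells of plates 521 to 524, compared with 16.7%, 8.28%, 0.351% and 0.321% without thinning. Slc22a14 had one in 18.3%, 6.21%, 0 and 0.321% of cells at that depth, compared with 21.7%, 7.24%, 0 and 0.321% without it. For Cdh26 the shares were 39.3%, 17.2%, 1.05% (3 cells) and 1.60%, compared with 41.7%, 17.9%, 4 cells and 2.56%. Carriers were not confined to a corner of a plate: those of Cyp4b1 on plate 521 lay in 13 of 16 rows and 17 of 24 columns, and those of Slc22a14 in 16 rows and 21 columns. Single reads can pass between wells that share an index. Among cells of plate 521 below the threshold, a Cyp4b1 read was found in 12 of 120 cells that shared a row or column with its 5 highest cells and in 7 of 149 others. For Slc22a14 these counts were 4 of 111 and 11 of 139. On plate 522 they were 2 of 117 and 3 of 154 for Cyp4b1, and 5 of 126 and 1 of 149 for Slc22a14. For Cdh26 they were 9 of 98 and 8 of 94 on plate 521, and 2 of 93 and 5 of 152 on plate 522. Passage of reads between wells was not tested.

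The size of the plate difference was ranked among all genes that reached 10 CPM on any plate. The fold set the lower of plates 521 and 522 against the higher of plates 523 and 524, with 1 CPM added to each. It was 36.4 for Cyp4b1, 14.1 for Slc22a14 and 12.3 for Cdh26, which placed them 2nd, 7th and 11th of 10782 genes. A fold of 10 or more in this direction was found for 13 genes, or 0.121%, and in the other direction for 1 gene, or 0.00927%. At 2-fold the counts were 229 genes (2.12%) and 96 genes (0.89%). These 3 were chosen for this pattern, so nothing is read from their rank.

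Per kilobase of exon, the levels over all cells were 11.0 CPM for Cyp4b1, 8.56 CPM for Slc22a14 and 16.0 CPM for Cdh26. Relatives in the same families that reached 20 CPM were read on all 4 plates. Of 101 rows named as P450 genes, 7 reached 20 CPM over all cells and 4 had no read. Cyp2d22 led them with 41.2 CPM per kilobase, and at 81.5, 123, 231 and 208 CPM on plates 521 to 524 it was lowest where Cyp4b1 was highest. Cyp20a1 followed with 29.9 CPM per kilobase and levels of 94.8, 72.2, 46.2 and 59.5 CPM. Of 26 Slc22a rows, 4 reached 20 CPM, and Slc22a8, an organic anion transporter of the blood-brain barrier, was far above Slc22a14 with 244 CPM per kilobase and levels of 647, 920, 1090 and 1159 CPM. Of 23 Cdh rows, 4 reached 20 CPM over all cells, led by the endothelial junction cadherin Cdh5 with 94.1 CPM per kilobase and levels of 433, 405, 340 and 401 CPM. Cdh11, a mesenchymal cadherin, was like Cdh26 higher on plates 521 and 522 than on 523 and 524, at 42.1, 15.5, 2.73 and 1.17 CPM.

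Genes next to the 3 on their chromosomes were mostly low or read on all plates. Cyp4a32, Cyp4a31 and Cyp4a10, neighbours of Cyp4b1, were at 0.369 CPM or less on every plate, and its pseudogene rows Cyp4b1-ps1 and Cyp4b1-ps2 were at 0.132 CPM or less. Slc22a13, the overlapping relative of Slc22a14, was at 0.257 CPM or less. Acaa1b, a peroxisomal thiolase gene outside the overlap, was low but also higher on plates 521 and 522, at 2.97, 1.19, 0.0583 and 0.0184 CPM. Among the other overlapping genes, the adaptor gene Myd88 was at 33.1, 35.5, 34.3 and 33.1 CPM on plates 521 to 524 and Oxsr1 at 28.1, 37.1, 30.0 and 40.4 CPM. The 2 neighbours of Cdh26 with the smallest distance, Fam217b and Ppp1r3d, were at 14.4, 8.83, 6.14 and 3.87 CPM and at 4.51, 4.29, 0 and 3.62 CPM.

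Cells with Slc22a14 were frequent among those with Cyp4b1 on plate 521. There, 15 of 31 carriers of Cyp4b1 also carried Slc22a14 (48.4%, 30.2% to 66.9%), against 35 of 269 other cells (13.0%, 9.23% to 17.6%). On plate 522 it was 3 of 19 (15.8%, 3.38% to 39.6%) against 12 of 271 (4.43%, 2.31% to 7.61%), and these intervals overlap. Most carriers of Slc22a14 carried Cdh26 on both plates. Of the Slc22a14 carriers, 37 of 50 carried Cdh26 on plate 521 (74.0%, 59.7% to 85.4%), against 71 of 250 other cells (28.4%, 22.9% to 34.4%). On plate 522 it was 10 of 15 (66.7%, 38.4% to 88.2%) against 35 of 275 (12.7%, 9.03% to 17.3%). Of the Cyp4b1 carriers, 18 of 31 carried Cdh26 on plate 521 (58.1%, 39.1% to 75.5%), against 33.5% of the other cells (27.8% to 39.4%), and 6 of 19 on plate 522 (31.6%, 12.6% to 56.6%), against 14.4% (10.4% to 19.1%), with overlapping intervals on both plates.

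All 3 genes were carried together by 12 cells of plate 521 and 1 cell of plate 522. Cyp4b1 was the sole gene of the 3 in 10 and 11 cells of these plates, Slc22a14 in 10 and 3, and Cdh26 in 65 and 30. None of the 3 was carried by 169 and 229 cells. On plates 523 and 524 no cell carried more than 1 of them.

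**Figure D2:**
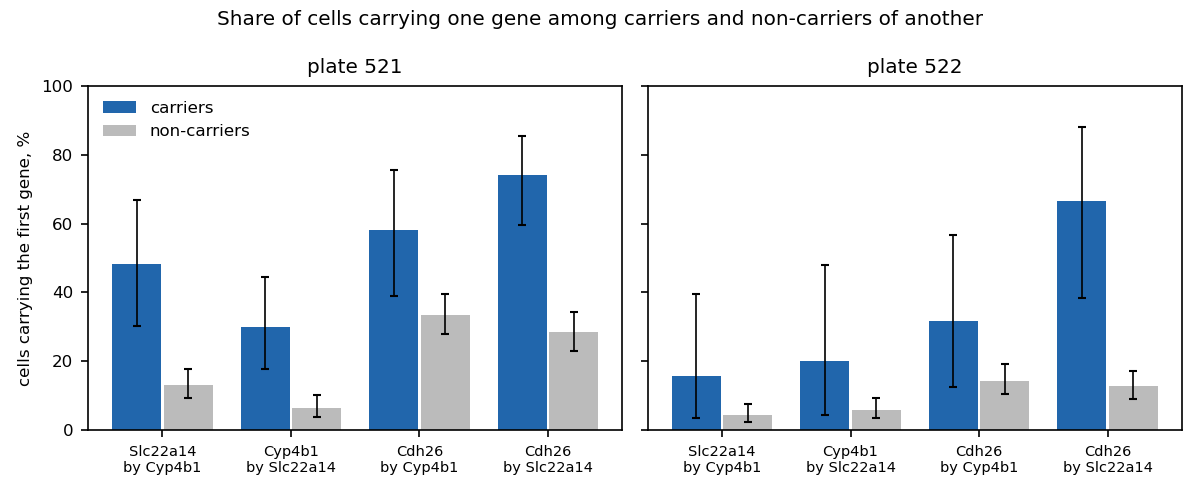
Percent of cells that carry the first gene among carriers (blue) and non-carriers (grey) of the second gene, on plates 521 and 522, with exact 95% binomial intervals for counting error as bars. All 4 blue bars are above their grey neighbours on both plates, and the widest gap on plate 521 is that of Cdh26 by Slc22a14, 74.0% against 28.4%.

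Across the 1187 cells, with plate means of log2(CPM + 1) subtracted, Pearson's r was 0.26 between Cyp4b1 and Slc22a14, 0.35 between Slc22a14 and Cdh26 and 0.14 between Cyp4b1 and Cdh26. These are weak values in sparse counts of cells that share plates and depth, and they are given as a description. Among genes read in at least 10% of cells, the 5 with the highest r for Cyp4b1 were Fgfbp1, a carrier protein of fibroblast growth factors (0.27), the matrix proteoglycan Bgn (0.26), the LIM protein Ajuba (0.25), the IGF-binding protein Igfbp4 (0.25) and the growth factor Bmp4 (0.24). For Slc22a14 they were Bgn (0.35), Cdh26 (0.35), Fgfbp1 (0.35), Ajuba (0.28) and the scavenger receptor Colec12 (0.28). For Cdh26 they were Bgn (0.42), the prostacyclin synthase Ptgis (0.30), Fgfbp1 (0.30), Bmp4 (0.29) and Bmp6 (0.28). Bgn and Fgfbp1 stood in all 3 lists. Within plates 521 and 522, the r of Bgn was 0.22 and 0.34 with Cyp4b1, 0.43 and 0.26 with Slc22a14, and 0.43 and 0.46 with Cdh26.

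Cells that carried Cyp4b1 or Slc22a14 were next set against the other cells of the same plate, 66 against 234 cells on plate 521 and 31 against 259 on plate 522. A gene counted as higher or lower when its CPM, summed over cells and with 1 CPM added, differed at least 2-fold in the same direction on both plates. Of 8283 genes at 20 CPM or more in either set of cells on both plates, 66 were higher in carriers, or 0.797%, and 126 were lower, or 1.52%. Cyp4b1, Slc22a14 and Cdh26 are among the higher genes, and 63 others remain. The median log2 ratio of all 8283 genes was -0.02 on plate 521 and -0.04 on plate 522. Since carriers were picked by the level of both genes and the named genes by these ratios, the values that follow are a description. Carriers also had more genes with a read at 100000 reads per cell, with medians of 4590 against 4077.5 on plate 521 and 4371 against 3841 on plate 522. They were somewhat deeper, with medians of 389605 against 369292 reads and 362261 against 348924 reads. The part of this in the gene differences was not tested.

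The naming rule gave 12 higher genes, of which Bgn and Colec12 were read in the most carriers. Bgn, the proteoglycan biglycan, stood at 1126 against 349 CPM on plate 521 and at 723 against 129 CPM on plate 522, log2 ratios of 1.69 and 2.47. In single carriers of plate 521 it ran from 0 through a median of 981 to 2782 CPM, while the median of other cells was 4.64 CPM, so the sets overlap. Colec12, a scavenger receptor with a collagen-like stalk, was at 342 against 117 CPM and 149 against 51.9 CPM, log2 ratios of 1.53 and 1.51. Its single carriers ran from 0 through 222 to 1549 CPM on plate 521. Tln2, the integrin-binding adaptor talin 2, had log2 ratios of 1.93 and 2.12, with 184 against 47.6 CPM and 209 against 47.3 CPM. Alcam, an adhesion molecule of the immunoglobulin family, had 1.56 and 1.54, and Plxnb2, a semaphorin receptor, 1.83 and 1.60. Thsd7a, a membrane protein with thrombospondin repeats, was 2.84-fold and 3.50-fold higher.

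The other 6 were Gm7694 with log2 ratios of 2.41 and 2.69, the doublecortin-domain gene Dcdc2a with 2.36 and 3.06, and the nuclear protein gene Csrnp1 with 1.84 and 1.87. The organic anion transporter Slco3a1 had 1.77 and 3.48, the DNA primase subunit Prim2 1.68 and 2.06, and the kelch-domain gene Klhdc7a 1.68 and 2.65. Most were read in a minority of carriers. At fixed depth on plate 521, Bgn had a read in 92.4% of carriers against 49.6% of other cells and Colec12 in 86.4% against 40.6%. Dcdc2a was read in 36.4% against 7.26%, Gm7694 in 12.1% against 4.27% and Prim2 in 16.7% against 12.0%. Single cells weigh heavily in such ratios. On plate 521 the highest carrier stood at 1400 CPM for Prim2 and 1197 CPM for Slco3a1, beside 34.5 and 29.5 CPM summed over the carriers. For Dcdc2a on plate 522 these values were 563 and 26.3 CPM. Among cells of clusters 0 and 3 described below, the ratio nearer to 0 of the 2 plates was -0.26 for Slco3a1, 0.12 for Prim2 and 0.67 for Alcam, compared with 1.77, 1.68 and 1.54 among all cells.

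Bgn stood higher in carriers of either gene than in cells with none of the 3. On plate 521 its level was 708 CPM in 16 cells with Cyp4b1 and without Slc22a14, 1321 CPM in 35 cells with Slc22a14 and without Cyp4b1, and 1177 CPM in 15 cells with both. It was 550 CPM in 65 cells with Cdh26 as the sole gene of the 3 and 274 CPM in 169 cells with none. On plate 522 the values were 649 CPM in 16 cells, 532 CPM in 12, 1952 CPM in 3, 489 CPM in 30 and 84.2 CPM in 229. Cells with Cdh26 alone therefore stood between the carriers and the cells with none on both plates. Colec12 kept this order in part. On plate 522 it was at 95.7 CPM in cells with Cyp4b1 and without Slc22a14. It was at 146 CPM in cells with Slc22a14 and without Cyp4b1, and at 465 CPM in cells with both. Cells with Cdh26 alone, at 101 CPM, stood between all carriers, at 149 CPM, and cells with none, at 45.7 CPM. On plate 521 the 3 kinds of carriers were at 261, 386 and 338 CPM. There cells with Cdh26 alone, at 90.6 CPM, stood below cells with none, at 127 CPM. Cdh26 itself was at 268 against 94.5 CPM in carriers and other cells of plate 521 and 213 against 34.3 CPM on plate 522, log2 ratios of 1.49 and 2.60.

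The 8 named lower genes were low or absent in most carriers. Alpl, the tissue-nonspecific alkaline phosphatase found on arterial and capillary endothelium of the brain, was at 1.21 against 121 CPM on plate 521 and 0.186 against 173 CPM on plate 522, log2 ratios of -5.78 and -7.20. At fixed depth it was read in 3.03% of carriers and 11.1% of other cells on plate 521, and in none of the 31 carriers and 16.2% of others on plate 522. Slc26a10, of the SLC26 anion transporter family, had 9 reads in all carriers of plate 521 and 1 read in those of plate 522, against 38.9 and 104 CPM in other cells. The protein tyrosine phosphatase Ptprr had log2 ratios of -3.92 and -4.36, the cyclin Ccnd2 -2.72 and -4.05, and the basement membrane collagen Col18a1 -2.68 and -5.31. The deacetylase Hdac10 had -2.85 and -2.55, the stathmin Stmn2 -3.21 and -2.44, and the kinase Mapk12 -3.04 and -2.34. These genes were read in few cells of either kind, 10.7% to 23.9% of the other cells of plate 521 at fixed depth. Among cells of clusters 0 and 3 the ratio nearer to 0 was 0.06 for Stmn2, -0.41 for Col18a1, -1.09 for Hdac10 and -2.40 for Alpl.

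**Figure D3:**
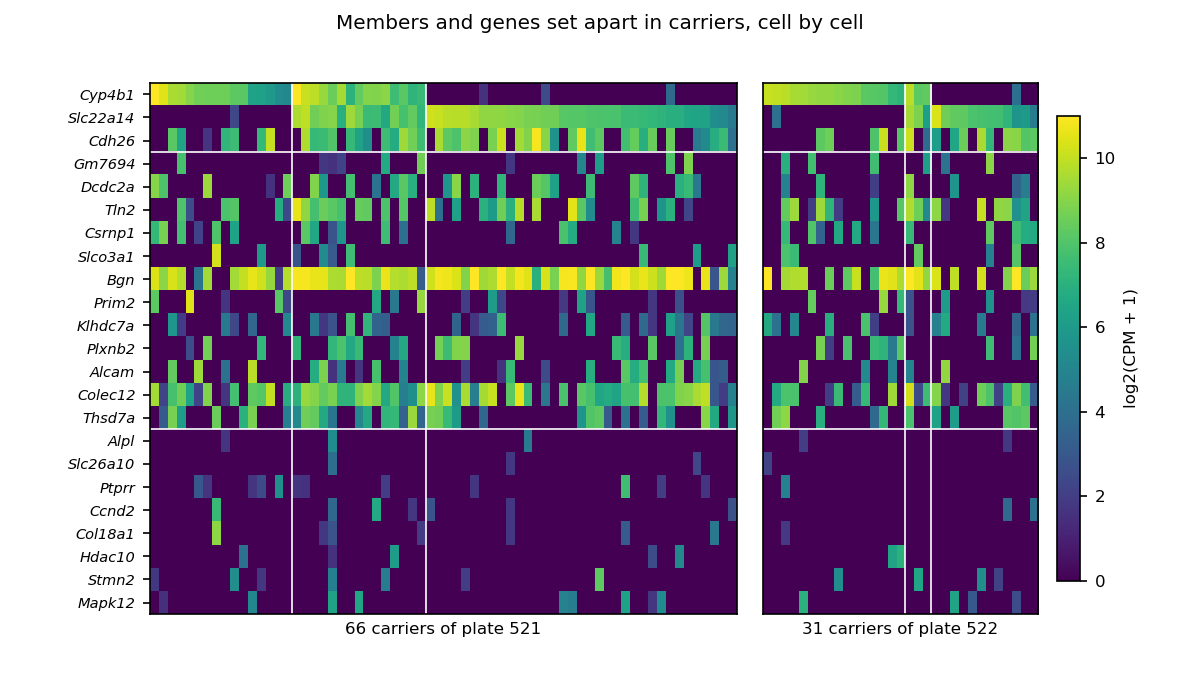
Level as log2(CPM + 1) of Cyp4b1, Slc22a14, Cdh26, the 12 named higher and the 8 named lower genes (rows) in each of the 66 carriers of plate 521 and 31 carriers of plate 522 (columns, 1 cell each). White vertical lines part cells with Cyp4b1, with both and with Slc22a14; Bgn and Colec12 are bright in most columns, the other named higher genes in scattered cells, and the lower genes are dark nearly throughout.

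Plates 523 and 524 were not used for these ratios. Of the 12 higher genes, 11 were lower on both of those plates than on both of 521 and 522, the exception being Csrnp1, and so was 1 of the 8 lower genes, Col18a1. Of all 8283 genes 2374, or 28.7%, were lower on both. Since nearly all carriers are on plates 521 and 522, genes higher in carriers lean to these plates from the start, and nothing is read from the count. Bgn was at 521, 194, 20.1 and 3.39 CPM on plates 521 to 524 and Colec12 at 167, 62.4, 28.7 and 20.8 CPM.

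**Figure D4:**
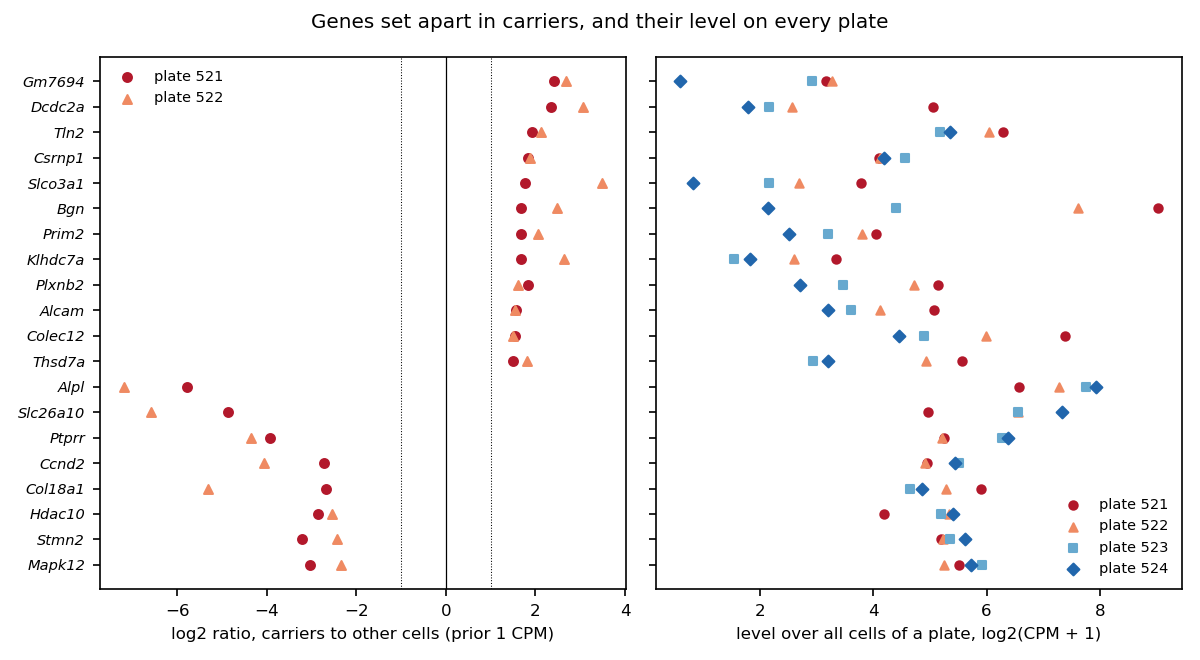
Left, log2 ratio of carriers to other cells on plates 521 and 522, with 1 CPM added to each side, for the 12 named higher and 8 named lower genes; dotted lines mark 2-fold. Right, the level of the same genes over all cells of each plate as log2(CPM + 1); Bgn falls from 521 CPM on plate 521 to 3.39 CPM on plate 524, while Alpl is lowest on plate 521.

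Some markers of arterial endothelium were lower in carriers. Over all 8283 genes, 1.52% were lower and 0.797% higher. Of 18 listed genes, 16 could be measured, 8 of them were lower on both plates and 0 higher, with median log2 ratios of -1.34 and -2.08. The 8 were Alpl and Stmn2, which the naming rule also gave, the Notch target Hey1 (-2.00 and -2.27), the matrix proteins Mgp (-5.03 and -4.88) and Fbln5 (-4.70 and -3.13), the connexin Gja4 (-1.84 and -2.42), the lymphangiogenic factor Vegfc (-4.11 and -4.66) and the netrin receptor Unc5b (-2.11 and -2.78). Vegfc was at 0.711 CPM in carriers and 28.6 CPM in other cells of plate 521. Except for Gja4 on plate 521, the 8 reached 20 CPM in the other cells alone, so their count is a description and carries no test. At fixed depth they were read in 5.98% (Fbln5) to 25.2% (Hey1) of the other cells of plate 521, so these ratios rest on a minority of cells. The remaining measured genes had no call, among them the Notch ligand Dll4, at -0.85 and 0.15, and Gkn3, at -0.68 and 0.06. At fixed depth each of the 8 was read in a smaller share of carriers than of other cells. Gkn3 was read in a larger share of carriers, 36.4% against 27.4% on plate 521 and 38.7% against 21.6% on plate 522.

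Venous markers leaned the other way without a call. Of 14 listed, 10 could be measured, 0 were higher and 0 lower on both plates, and the median log2 ratios were 0.48 and 0.87. The 14 summed to 3861 CPM in carriers against 2851 CPM in other cells of plate 521 and to 4141 against 2150 CPM on plate 522. A large part of each sum was 1 gene, Vwf, with 1875 against 1499 CPM on plate 521 and 1972 against 987 CPM on plate 522. Nr2f2, which could not be measured on both plates, was at 1.25 and -0.71. The adhesion molecule Vcam1 was at 0.39 and 1.51 and von Willebrand factor, Vwf, at 0.32 and 1.00, while the receptor Ephb4 was at 0.59 and -0.20, Tmsb10 at -0.06 and 0.05, and Ch25h at -0.97 and 0.85. Over whole plates the sum was 3074 CPM on 521, 2367 CPM on 522, 999 CPM on 523 and 894 CPM on 524, so it was higher on the plates that held the carriers. Vwf gave 1582, 1094, 401 and 259 CPM of these. Of 10 capillary markers, all measured, 0 were higher and 2 lower, beside 1.52% of all genes lower, with medians of -0.63 and -0.92. They were the lipid transporter Mfsd2a (-2.69 and -1.83) and Rgcc (-1.45 and -2.04). Of 6 measured angiogenic markers, 0 were called in either direction.

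Genes of inflammation were higher in part. Of 12 listed, 9 could be measured and 3 were higher on both plates, beside 0.797% of all 8283 genes, with medians of 1.34 and 1.08. The 3 were the chemokine Cxcl1 (1.36 and 2.38), the NF-kappaB inhibitor Tnfaip3 (1.34 and 1.15) and the cytokine feedback inhibitor Socs3 (1.38 and 1.24). Icam1 and Vcam1 also stand in the venous list. The chaperone of class II antigen presentation, Cd74, was at 1.57 and 0.17. Of 15 immediate early genes, all measured, 0 were called, with medians of 0.25 and 0.26.

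Around Cyp4b1, the enzymes that make or use arachidonic acid products gave few calls. Over all 8283 genes 0.797% were higher and 1.52% lower, and a single call in a short list is not read as a result. Of 24 listed, 10 could be measured and 1 was higher on both plates, Ptgis, at 383 against 183 CPM on plate 521 and 328 against 123 CPM on plate 522, log2 ratios of 1.06 and 1.41. The cyclooxygenase Ptgs2 was at 2.79 and 0.98, short of 2-fold on plate 522. Of 21 P450 partners and regulators, 14 could be measured and 1 was lower, the retinoid receptor Rxrb (-1.18 and -1.38). The reductase Por was at -0.05 and -0.89. Other P450 genes gave no call, with 6 measured. Of 16 listed genes of xenobiotic handling, 14 could be measured and 0 were called.

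Around Slc22a14, 5 of 5 riboflavin genes could be measured and 1 was lower, the plasma membrane riboflavin transporter Slc52a3, at 33.2 against 78.4 CPM on plate 521 and 37.2 against 152 CPM on plate 522, log2 ratios of -1.22 and -2.00. Of the other Slc22a genes, 3 could be measured and 0 were called. Around Cdh26, 9 of 12 cadherin and integrin partners could be measured and 0 were called, with beta-catenin, Ctnnb1, at -0.04 and -0.36 and the integrin gene Itga4 at 0.46 and -0.66. Of 4 other cadherins measured, Cdh11 was higher (1.09 and 1.96), at 72.5 against 33.5 CPM and 48.0 against 11.6 CPM. Of 19 barrier genes, all measured, 1 was lower, Mfsd2a. With 0.797% higher and 1.52% lower over all 8283 genes, single calls in these lists are not read as a result.

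Transcripts of other cell types did not accompany carriers evenly. The 9 pericyte markers summed to 24.2 CPM in carriers and 24.2 CPM in other cells of plate 521 and to 3.54 against 28.2 CPM on plate 522, and none could be measured. The 7 microglial markers summed to 204 against 119 CPM on plate 521 and 89.1 against 97.7 CPM on plate 522. The 7 astrocyte markers summed to 182 against 196 CPM and 179 against 226 CPM, with Aldoc higher (1.38 and 1.27). The 6 fibroblast markers summed to 38.9 against 51.8 CPM and 0.279 against 4.94 CPM, and the 6 smooth muscle markers to 3.60 against 8.00 CPM and 6.24 against 3.47 CPM. No marker in these 5 lists was without any read in the table. Oligodendrocyte, neuronal, leukocyte, erythroid, choroid plexus and ependymal markers could not be measured in any gene, and their sums were 46.5 CPM or less in both kinds of cell. Lymphatic and fenestrated markers had 1 and 2 measured genes and gave no call.

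Cells were also clustered on 2000 variable genes without the 3, after plate means had been subtracted, into 8 clusters that were named from listed markers. A single cluster, number 3, held 45 of the 99 cells that carried Cyp4b1 or Slc22a14 (45.5%). It had 213 cells, 9 of 12 detected venous markers were at least 1.5-fold higher in it than in all other cells, and 0 of 18 arterial ones were. All 5 detected fibroblast markers were also higher in it, with a median log2 ratio of 1.34, and their part in the carriers found there was not tested. It stays without a name because no venous marker was among its 10 leading genes. Those included Cyp4b1, Slc22a14, the chemokine genes Cxcl16 and Cxcl1, the GTPase gene Gem and Ptgs2. On plate 521, 23.2% of its cells carried Cyp4b1, 34.8% Slc22a14 and 66.7% Cdh26, and on plate 522 the shares were 17.0%, 17.0% and 34.0%. Clusters are made from the same cells, so these shares are a description.

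Cluster 0, with 105 cells and 10 of 12 venous markers higher, among them the leading gene Nr2f2, was called venous-like and held 13 carriers. On plate 521, 7.14% of its 28 cells carried Cyp4b1, 21.4% Slc22a14 and 42.9% Cdh26, and on plate 522 15.6%, 6.25% and 28.1% of 32 cells. The arterial-like cluster 7, with 74 cells and 16 of 18 arterial markers higher, held 0 carriers of Cyp4b1 or Slc22a14. Cdh26 was carried by 2 of its 19 cells on plate 521 and 1 of 23 on plate 522. The arterial-like cluster 4, with 194 cells and 10 of 18 arterial markers higher, held 6 carriers, all on plate 521, and all 6 detected fibroblast markers were higher in it too. The angiogenic-like cluster 1 held 3 carriers among 150 cells. Clusters 2, 5 and 6 had no name and held 13, 15 and 4 carriers. Markers of several other cell types were higher in clusters 5 and 6. Cluster 5 had 5 of 6 detected microglial, 3 of 4 pericyte, 3 of 4 neuronal, 2 of 2 choroid plexus and 2 of 2 erythroid markers higher. Cluster 6 had 3 of 4 pericyte, 4 of 6 astrocyte, 2 of 3 lymphatic and 2 of 2 choroid plexus markers higher. It also had the lowest median depth, 278065 reads.

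In CPM summed over venous-like and over arterial-like cells, Slc22a14 and Cdh26 were higher in the former on plates 521 and 522. The order of Cyp4b1 depended on the plate. The values within plates were added after seeing the data. Within plate 521, with 28 and 47 cells, Cyp4b1 stood at 7.13 CPM in venous-like and 9.73 CPM in arterial-like cells, a log2 ratio of -0.40 with 1 CPM added. Its carriers on that plate were 2 cells of cluster 0, 1 of cluster 4 and 0 of cluster 7, so this order rests on very few cells. Slc22a14 stood at 95.7 against 19.3 CPM there (2.25) and Cdh26 at 129 against 87.0 CPM (0.56). Carriers of Slc22a14 on plate 521 were 6 cells of cluster 0 (21.4%), 5 of cluster 4 (17.9%) and 0 of cluster 7. On plate 522 they were 2 cells of cluster 0 and 0 of clusters 4 and 7, so the order of Slc22a14 rests on few cells too. Within plate 522, with 32 and 57 cells, Cyp4b1 stood at 80.3 CPM against 1 read, Slc22a14 at 53.3 CPM against 1 read, and Cdh26 at 145 against 22.3 CPM (2.64). Neither kind of cell had over 3 reads of Cyp4b1 or Slc22a14 on plate 523 or 524, and Cdh26 was at 19.7 against 4.26 CPM on plate 524. Over all plates the log2 ratios were 3.29, 3.31 and 1.95, but 77 and 87 arterial-like against 13 and 32 venous-like cells lay on plates 523 and 524, where the genes are scarce. At a clustering resolution of 0.5 the pooled ratios were 4.13, 3.73 and 2.16, and with 4000 variable genes 3.57, 3.48 and 2.38. At a resolution of 2, or with plate means kept, no cluster was venous-like and the ratio has no value.

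**Figure D5:**
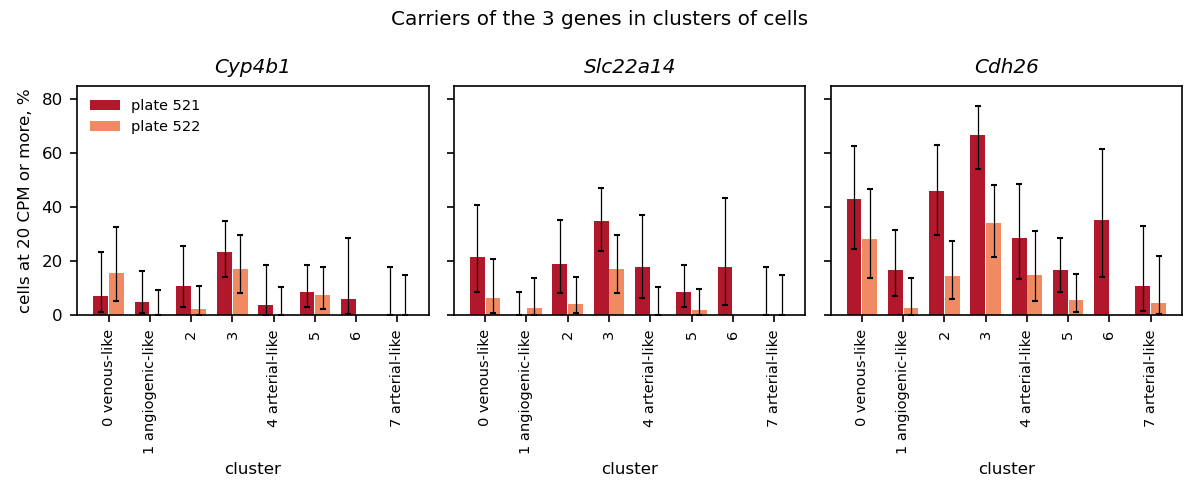
Percent of the cells of each cluster that carry Cyp4b1, Slc22a14 or Cdh26, on plates 521 (dark) and 522 (light), with exact 95% binomial intervals for counting error; shares are drawn where a plate has at least 10 cells of a cluster, which leaves out cluster 6 on plate 522. Cluster 3 has the highest share of all 3 genes on both plates, up to 66.7% for Cdh26, and the arterial-like cluster 7 has none of Cyp4b1 or Slc22a14.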

How the data were processed

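Single-cell counts were read for 1187 cells. The authors deposited whole-number counts of reads per gene, without normalisation. The submitters' processing notes list the builds GRCm38 and mm10, the counter featureCounts with Subread 1.4.6-p5, the aligner TopHat2 2.1.1 and SAMtools 0.1.18. Annotation, strand setting and filters are not given in the sources used here. Reads of a gene and of an antisense partner cannot be told apart. Columns were described by plate as 1 pooled sample. No filter on cells and no doublet caller was applied. The members and lists were chosen with earlier results of these data known.

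Counts were scaled to CPM of a cell or of summed cells. Shares carry exact Clopper-Pearson intervals and levels exact Poisson intervals, both at 95%, and the limit beside a count of 0 is 3 counts of the total. Depth ran from 100779 to 584112 reads per cell. Ratios add 1 CPM to both sides. A gene was measured at 20 CPM or more in either set of cells on both plates. Named genes are the 12 highest and 8 lowest by the plate ratio nearer to 0, among genes with at least 20 CPM on the higher side, a read at 100000 reads per cell in at least 10% of its cells, and a mean of log2(CPM + 1) in that direction, on both plates, without the 3 members and mitochondrial genes. Likeness was Pearson's r over cells.

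Clustering used scanpy 1.11.5 and python-igraph 0.11.9 (Leiden, resolution 1, 15 neighbours, 30 principal components). A cluster name needed at least 3 markers, and the share 0.5 of those detected, 1.5-fold higher than in all other cells, with a marker among its 10 leading genes, or 3 of them for a cell type other than endothelium. Alternatives included edgeR 4.0.16 TMM factors. The ratio step was run on simulated data in which genes were drawn independently and carriers were set at random. Such data cannot give the rate of false calls in these cells. Promoters are from RefSeq, where all 3 symbols matched.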

Additional observations from a re-analysis of the deposited data

How the results depend on the processing

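The 1187 cells are 1 sample, so these ranges show dependence on settings and plates, not error between animals. Leaving out each plate in turn moved the share of carriers between 2.25% and 5.83% for Cyp4b1 (4.30% over all cells), between 1.80% and 7.43% for Slc22a14 (5.56%) and between 5.98% and 17.8% for Cdh26 (13.6%). It moved the levels over all cells between 11.7 and 33.6 CPM for Cyp4b1 (24.9 CPM), 5.24 and 28.1 CPM for Slc22a14 (20.8 CPM) and 18.7 and 63.9 CPM for Cdh26 (48.2 CPM). The share of Cyp4b1 carriers with Slc22a14 moved between 15.0% and 46.9% (35.3%). The lowest value was that without plate 521 each time. At 100 CPM the Cdh26 share was 10.9%. Averaged over the CPM of single cells, the level was 22.7 for Cyp4b1 and 47.3 for Cdh26, outside the counting intervals. The remaining shares and levels under thresholds of 5 and 100 CPM, thinning and TMM factors stayed within them.

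The 66 higher and 126 lower genes became 109 and 220 with carriers by Cyp4b1 alone, sharing 32 and 79 genes with the former, 147 and 333 with a minimum of 5 CPM, and 221 and 724 with no minimum. Within clusters 0 and 3, chosen after seeing the data, 101 were higher, sharing 23, and Slco3a1 turned to -0.26 and Stmn2 to 0.062. The cause was not tested, beyond the fewer cells or lower minimum that these settings bring. All other settings kept these counts within 1.5 times, though not always the same genes. With carriers by Slc22a14 alone, 79 were higher and 185 lower, of which 34 and 72 were shared with the main set. Within clusters 0 and 3, 114 were lower, sharing 31. The other 18 named genes kept their direction under the settings run for single genes, but not their size. These were carriers at 5 and 100 CPM, 5 CPM added to both sides, TMM factors, clusters 0 and 3, and the mean over cells. Carriers by Cyp4b1 or Slc22a14 alone were run for the counts only. On plate 521 Prim2 was at 79.7 CPM in cells with Cyp4b1 and without Slc22a14. It was at 5.43 CPM in cells with Slc22a14 and without Cyp4b1, and at 10.0 CPM in cells with none of the 3. With carriers at 5 CPM, Alpl moved from -5.78 to -1.90, Ptprr from -3.92 to -1.13 and Stmn2 from -2.44 to -0.27, and Alcam was at 0.95 with carriers at 100 CPM. By the mean over cells of log2(CPM + 1), 14 of the 20 named genes differed by less than 1, among them Alpl at -0.89 and Gm7694 at 0.59. Within plate 521 the venous-like to arterial-like ratio of Cyp4b1, with 2 and 1 carriers, turned to -0.40, a comparison added after seeing the data. Cell depth limits detection: a share at 0 on plates 523 and 524 means up to about 1% of cells. No paired analysis was possible because the columns carry no genotype and no replicate number.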

Other observations

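Other genes shared the plate pattern, and those named here were chosen after their values were seen. Besides the 3 genes above, the group at 10-fold or more held Apln, the ligand of the apelin receptor, at 341, 201, 0.00972 and 3.78 CPM on plates 521 to 524. It also held Frzb, a secreted Wnt antagonist, at 77.9, 34.5, 0.0194 and 0.00918 CPM and Bmp6, a bone morphogenetic protein, at 145, 72.0, 0.836 and 1.46 CPM. Fgfbp1 was at 699, 288, 10.6 and 0.459 CPM. Genes of class II antigen presentation were in the same group: Cd74 stood at 41.3, 24.4, 0.807 and 0.284 CPM, H2-Ab1 at 16.2, 18.0, 0.418 and 0 CPM, and H2-Aa at 11.5, 11.4, 0 and 0 CPM. Plate, genotype and animal cannot be told apart for these genes either.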
